A study of Mus musculus with 24 samples.

Results

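Resting cortical neurons that carried a Smarcc2 knockout and an added Smarcc2 with the S586E substitution were compared with resting neurons that carried a non-targeting guide RNA. The 5 samples were chosen by their labels: 3 unstimulated knockout cultures with S586E (here S586E) and 2 unstimulated control cultures (here NT), of 24 samples in the series. All 5 were primary neurons from mouse cortex taken at embryonic day 16.5 and kept for 18 days in vitro (DIV18). Every culture received 1 µM tetrodotoxin, a sodium channel blocker, and 100 µM D-AP5, an NMDA receptor blocker, overnight before harvest, so silencing was common to both groups. The S586E cultures carried a CRISPR guide RNA against Smarcc2 together with the addback, and the NT cultures carried a guide RNA without a target and, as far as the labels say, no addback. Guide RNA, knockout and added protein therefore change together between the 2 groups and cannot be told apart in this comparison alone. For that reason the other resting DIV18 groups are given beside it where a result turns on them: knockout with an empty vector (3 cultures, here vector) and knockout with wild-type Smarcc2 (2 cultures, here WT). The labels do not give the promoter of the addback or the share of cells that carried it.

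Smarcc2 encodes BAF170, a core subunit of the BAF (SWI/SNF) complexes, which use ATP to move and evict nucleosomes. Smarcc1 encodes the related subunit BAF155, and the pair forms the scaffold on which the complex is assembled. In the developing cortex BAF170 is known from progenitors and from neurons, where the complex exchanges several subunits as cells leave the cell cycle. Glutamate carries a negative charge and is often put in place of serine to stand in for phosphoserine.

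The substitution is numbered by the labels without naming a transcript. The codon of that number was therefore read from the 3 long coding transcripts of GENCODE M21 (build GRCm38, chromosome 10, plus strand), because the number falls on different codons in them. The sequences show 30 coding bases on either side of that codon, 5′ to 3′, with the codon itself in capitals.
Smarcc2-202: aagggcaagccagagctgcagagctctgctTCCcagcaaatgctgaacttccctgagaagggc
Smarcc2-203: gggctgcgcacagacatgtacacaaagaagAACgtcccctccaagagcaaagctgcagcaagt
It was TCC, a serine codon, in Smarcc2-202 (chr10:128482095-128482097, exon 19 of 29). It was AAC, an asparagine codon, in Smarcc2-203 and in Smarcc2-201 (chr10:128482188-128482190, exon 18 of 28 in both). The TCC of Smarcc2-202 is codon 555 in both of those transcripts. Which transcript the addback was built on is not given in the sources used here.

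As a check of the labels, Smarcc2 itself (ENSMUSG00000025369.15, chr10:128459248-128490482) stood at 265 and 237 CPM in NT replicates 1 and 2, where CPM are counts scaled to a common library total after TMM normalisation. In S586E replicates 1 to 3 it stood at 1236, 1164 and 1276 CPM. The groups did not overlap, and the mean of S586E (1225 ± 57.1, SD, n = 3) was 4.88 times that of NT (251 ± 19.96, SD, n = 2), a log2 fold change of 2.29 (SE 0.151, edgeR adjusted p = 1.58e-07). Vector cultures held 47.1, 49.8 and 64.1 CPM and WT addback cultures 816 and 756, so the S586E libraries had the highest level of the resting groups. The level of S586E against WT addback differed by a log2 of 0.64, which did not pass the test (adjusted p = 0.114).

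The shares of the Smarcc2 transcripts differed between the groups. In NT, Smarcc2-202 took 59.5% and 56.5% of the estimated counts of the gene (3715 of 6241 and 2917 of 5162), and Smarcc2-203 took 9.52% and 14.9%. In S586E, Smarcc2-203 took 58.1%, 60.5% and 61.1% and Smarcc2-202 only 1.26%, 1.92% and 2.09% (284, 514 and 511 counts). Smarcc2-201 held a share between 27.8% and 34.7% in all 5 libraries, so its estimated counts were also higher in S586E (7817, 8273 and 7893) than in NT (1812 and 1436). Smarcc2-203 was thus the transcript with the largest share in every S586E library, and it is a transcript in which the codon of that number is AAC. WT addback cultures had the same order, with 59.6% and 60.6% on Smarcc2-203. These are estimates by the authors' program from reads that the transcripts share, and they are not divided by length. Smarcc1 did not pass the test, with 88.5 and 102 CPM in NT and 99.4, 85.0 and 86.3 CPM in S586E.

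The 5 libraries held between 18890480 and 24024959 estimated counts. Labelled as primary neurons, all of them carried high levels of neuronal markers: Map2, a dendritic microtubule protein, at 1041 to 1200 CPM and Slc17a7, the vesicular glutamate transporter of excitatory cells, at 1612 to 2082 CPM. Other cells were present too, since Gfap and Slc1a2 of astrocytes stood at 91.6 to 176 and 871 to 1249 CPM, while the microglial genes P2ry12 and C1qa did not exceed 0.212 CPM. The labels call the cortex of each embryo a biological replicate, yet each of the 5 libraries held both Xist (569 to 899 CPM) and the Y-linked Ddx3y (15.8 to 27.3 CPM). RNA of both sexes was thus present in each library, unlike that of a single embryo. Which embryos, litters or plates the libraries share cannot be read from these values. The p-values measure only the spread between libraries of the same group. That spread was estimated over all groups fitted together, with 12 residual degrees of freedom, and not from these libraries alone. A fit of only the groups compared had 3 residual degrees of freedom. In bulk RNA, fewer cells of a type and less RNA per cell cannot be told apart.

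Of 20940 genes tested, 583 were called at an adjusted p under 0.05 (2.78%), 218 of them higher in S586E (1.04%) and 365 lower (1.74%). These shares are the background for the counts of calls in the gene lists below. The changes were mostly small. The median log2 fold change was 0.64 among genes that rose and -0.81 among genes that fell, against 0.01 over all genes tested, and 56 genes rose and 132 fell by at least 1 on the log2 scale. Among named genes with a mean of at least 1 CPM, the falls were led by Sox10 and Pdgfra, both of oligodendrocyte precursors, and the rises by Smarcc2 itself. At an unadjusted p under 0.05 there were 3717 genes. The libraries of the groups did not overlap for any of the 583 genes, while 34.9% of all genes tested did not overlap, 15.9% higher and 19% lower in S586E. The plot of fold change against level shows these calls.

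**Figure D1:**
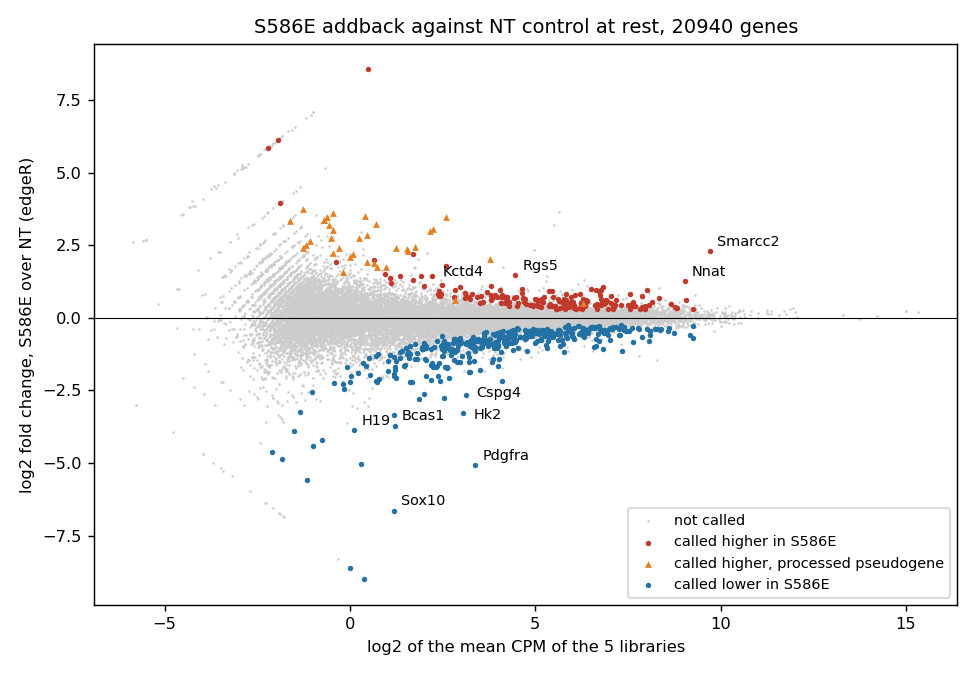
Log2 fold change of S586E over NT (vertical axis) against the log2 mean CPM of the 5 libraries (horizontal axis) for 20926 genes with a count in them. Red and blue points were called higher and lower, orange triangles are processed pseudogenes called higher, and grey points were not called. Smarcc2 stands alone at the upper right, and Sox10 and Pdgfra lie furthest below 0 among the labelled genes.

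The size of the call set rested most on NT replicate 2, and also on each S586E library. Across 15112 genes, which are not independent replicates, Pearson's r of log2 CPM was 0.974 to 0.978 between NT replicate 2 and the S586E libraries, 0.984 to 0.987 between NT replicate 1 and the S586E libraries, and 0.989 between the 2 NT libraries. Of the 365 genes that fell, 328 were higher in NT replicate 2 than in NT replicate 1, and of the 218 that rose, 169 were lower in it, whereas over all genes tested 50.3% were higher in NT replicate 2. Without NT replicate 2 only 3 genes were called, Smarcc2 and the pseudogenes Gm16409 and Gm12912, and without NT replicate 1 there were 539. Leaving out S586E replicate 1, 2 or 3 gave 64, 170 and 267 genes. All 583 genes kept their sign each time a library was left out. Their libraries did not overlap between the groups, which all but fixes that outcome, so it is no support for the calls. With a single NT library left, its spread is assumed to be like that of the other groups. Other settings moved the count as well, to 168 with offsets for effective length, 367 in a fit of the resting groups alone and 1093 with DESeq2.

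**Figure D2:**
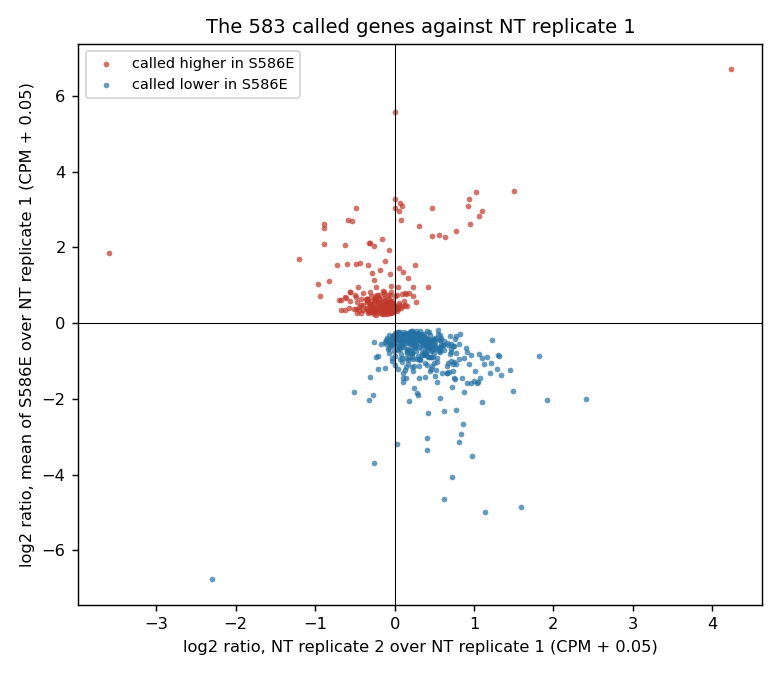
The 583 called genes, each by the log2 ratio of NT replicate 2 to NT replicate 1 (horizontal axis) and of the S586E mean to NT replicate 1 (vertical axis), with 0.05 CPM added to each value. Genes called lower (blue) lie mostly right of 0 and genes called higher (red) mostly left of it, so that NT replicate 2 was farther from S586E than NT replicate 1 was.

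Genes of oligodendrocyte precursors, the glial cells that divide and later form myelin, fell the most. Of 12 markers 10 were tested, and 6 fell and 0 rose: Gpr17, Sox10, Pdgfra, Bcas1, Cspg4 and Vcan. The median log2 fold change of the 10 was -2.21, against 0.01 over all genes. Pdgfra, the growth factor receptor that defines these cells, stood at 19.7 and 30.3 CPM in NT and at 0.824, 0.564 and 0.836 CPM in S586E. Every S586E library was thus far below both resting controls, with a mean 33.7 times lower (log2 -5.08, SE 0.751, edgeR adjusted p = 0.00299). The level was not stable among controls: in the 2 NT libraries depolarized with KCl, Pdgfra averaged 7.46 CPM with an SD of 8.54. Sox10, the transcription factor of the oligodendrocyte lineage, had 2.76 and 8.40 CPM in NT and 0, 0.0867 and 0.0522 CPM in S586E. That is 248 counts in the NT libraries against 3 in the S586E libraries, a ratio of 110 after scaling (95% exact counting interval 37.3 to 538). Gpr17, a receptor of precursors about to differentiate, had 111 counts in NT and 0 in the 3 S586E libraries together, which is at least 49.3-fold lower against a floor of 3 counts over the group.

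Cspg4, the NG2 proteoglycan, fell from 13.9 and 21.3 CPM in NT to 1.81, 3.56 and 2.82 CPM in S586E (log2 -2.68, SE 0.368, adjusted p = 0.00223). Bcas1, a gene of newly forming oligodendrocytes, stood at 4.46 and 5.92 CPM in NT and at 0.165, 0.130 and 0.888 in S586E. Not every marker followed: Lhfpl3 had a log2 fold change of 0.06, and Olig1 and Olig2, with -1.74 and -1.17, did not pass the test (adjusted p = 0.0655 and 0.242). The summed level of the 12 markers was 256 and 301 CPM in NT and 127 to 141 CPM in S586E, most of it from Ptprz1, which astrocytes also express. Among myelin genes Cldn11 fell (1.49 and 1.24 CPM in NT, 0.165, 0.0434 and 0 in S586E) and 0 of the other 8 tested were called, Mbp standing at 121 and 89.8 CPM in NT and 119 to 139 in S586E. The call of Cldn11 was lost when any of the 5 libraries was left out, and with length offsets. Without NT replicate 2 none of the 6 precursor genes was called, although the median stayed at -1.86, and without S586E replicates 1 or 2 there were 3 each.

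Of 14 proliferation genes 4 fell and 0 rose, and the median log2 fold change of the 14 was -1.38. Top2a, the topoisomerase of dividing cells, stood at 5.52 and 9.50 CPM in NT and at 1.21, 0.824 and 1.20 CPM in S586E. Mki67, the Ki-67 antigen, had 7.52 and 16.1 CPM in NT and 2.20, 1.08 and 1.93 CPM in S586E (log2 -2.77, SE 0.659, adjusted p = 0.0345). Rrm2, a subunit of ribonucleotide reductase, fell by 1.68 on the log2 scale, and Aurkb, a mitotic kinase, had 30 counts in NT against 1 in S586E (ratio 40.0, counting interval 6.65 to 1631). Sapcd2 and Ckap2, both linked to the mitotic spindle, were also among the 12 largest falls. Genes of DNA replication licensing, Mcm2 and Mcm5, overlapped between the groups. The summed level of the list was 56.6 and 88.3 CPM in NT and 35.6 to 43.0 in S586E. No gene of the list was called without NT replicate 2, with length offsets, or when any of the 3 S586E libraries was left out.

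Astrocyte markers were lower to a smaller degree. Of 14 tested, 12 had a negative log2 fold change with a median of -0.52, and 2 fell. Atp1b2, a sodium pump subunit of astrocytes, had 342 and 383 CPM in NT and 188, 227 and 203 CPM in S586E (log2 -0.81, SE 0.186, adjusted p = 0.0292). Ntsr2, a neurotensin receptor, had 10.3 and 14.1 CPM in NT and 4.67, 3.38 and 4.75 CPM in S586E. The summed level of the 14 markers was 2495 and 2388 CPM in NT and 1761 to 1873 CPM in S586E, and no marker was at 0. Gfap overlapped between the groups, and the markers of neural progenitors gave no call, with a median of -0.36. No astrocyte marker was called without NT replicate 2, S586E replicate 1 or S586E replicate 2, and 1 was without S586E replicate 3. The plot of 8 genes by library shows where the vector and WT addback cultures lay.

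**Figure D3:**
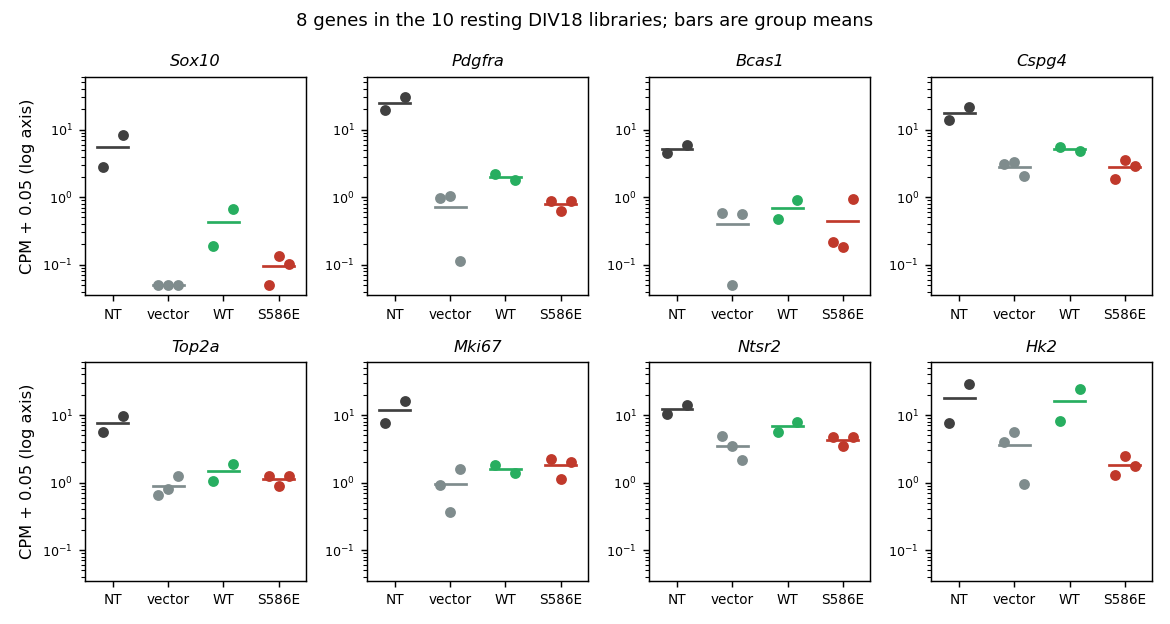
CPM plus 0.05 on a log axis for 8 genes in the 10 resting DIV18 libraries, grouped as NT, knockout with vector, with WT and with S586E. Points are libraries and bars are group means. For the first 7 genes both NT libraries lie above every library that carried the knockout, and for Hk2 the WT addback libraries reach the NT range.

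The extracellular matrix list overlapped in part with these glial genes. Of 31 tested genes 4 fell and 0 rose, with a median of -0.22. Col11a1, a fibrillar collagen, stood at 6.84 and 9.18 CPM in NT and 0.824, 1.69 and 1.31 CPM in S586E. The chondroitin sulfate proteoglycans of the perineuronal net were lower by less: Ncan had 669 and 777 CPM in NT and 504, 482 and 449 CPM in S586E, and Bcan had 51.7 and 56.3 against 32.8, 29.9 and 37.7 CPM. Vcan, counted above among the precursor markers, completes the 4, and it had log2 fold changes of -1.05 for S586E and -1.01 for WT addback against NT. In Bcan and Ncan the groups did not overlap, which was so for all 583 called genes and does not set these 2 apart. H19, an imprinted noncoding RNA, was another of the 12 largest falls, with 1.78 and 3.17 CPM in NT and 0.0549, 0.260 and 0.157 CPM in S586E, as was Car14, a membrane carbonic anhydrase, at 4.29 and 5.69 against 0.165, 0.694 and 0.575 CPM. No gene of the matrix list was called without NT replicate 2 or S586E replicate 1, and 1 was without S586E replicate 2.

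Of 20 glycolysis genes tested 4 fell and 0 rose: Hk2, Slc2a1, Pfkl and Gpi1. The other 16 did not pass, and the median log2 fold change of the 20 was -0.28. Slc2a1, the glucose transporter GLUT1, stood at 58.0 and 108 CPM in NT and 38.7, 37.9 and 32.6 CPM in S586E (log2 -1.19, SE 0.240, adjusted p = 0.0187). Hk2, a hexokinase, had 7.48 and 28.4 CPM in NT and 1.26, 2.39 and 1.72 CPM in S586E, so the 2 controls were far apart as well. Pfkl, the liver-type phosphofructokinase, had 109 and 173 against 78.6, 74.2 and 64.7 CPM, and Gpi1, glucose-6-phosphate isomerase, 692 and 885 against 498, 510 and 449 CPM. In all 4 genes NT replicate 2 was the highest of the 5 libraries. The 4 had log2 fold changes between -0.31 and -0.14 in WT addback against NT, and none passed there. The list gave 0 calls without NT replicate 2, S586E replicate 1 or S586E replicate 3, 1 without S586E replicate 2 and 1 with length offsets, but 7 without NT replicate 1 and 8 with DESeq2.

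Of 16 p53 targets tested, 4 fell and 0 rose, with a list median of -0.24 and 6 positive values. The 4 were the receptors Eda2r and Tnfrsf10b, the cell cycle inhibitor Cdkn1a and Ccng1. Cdkn1a had 107 and 151 CPM in NT and 63.4, 76.6 and 95.9 CPM in S586E, and Ccng1 158 and 231 against 111, 133 and 143 CPM. NT replicate 2 was again the highest library for each of the 4. Of 37 neuropeptide and growth factor genes 2 fell, although the list had 24 positive values and a median of 0.20. Vegfa, the vascular growth factor, had 56.7 and 84.7 against 30.4, 45.2 and 48.0 CPM, and Fgf2 had 12.3 in both NT libraries against 5.44, 7.76 and 6.84 CPM. Txnip, a glucose-responsive thioredoxin inhibitor, was the single call of 20 stress genes (126 and 156 against 61.2, 106 and 74.9 CPM). The growth factor and stress lists thus had counts not far from the 2.78% called over all genes tested. None of these 7 genes was called without NT replicate 2 or S586E replicate 1, and with length offsets only Txnip was. Without S586E replicate 2 the p53, growth factor and stress lists gave 2, 1 and 1 calls, and without S586E replicate 3 they gave 3, 1 and 0.

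Neuronal genes moved in both directions and by less. None of 12 general neuron markers, 20 interneuron markers and 14 GABA receptor genes passed the test, with medians of 0.13, 0.21 and 0.04. At an unadjusted p under 0.05 these lists held 3, 2 and 3 genes, and DESeq2 called 1 gene in each. Of 16 markers of excitatory cortical neurons 2 rose, with a list median of 0.11. Tbr1, a transcription factor of deep-layer neurons, had 81.0 and 57.2 CPM in NT and 163, 121 and 123 CPM in S586E (log2 0.97, SE 0.176, adjusted p = 0.0111). All 3 S586E libraries were above both controls in Tbr1, and NT replicate 2 was the lower control. No gene of the list was called without NT replicate 2 or S586E replicate 1.

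Among glutamate receptors 3 of 29 rose and 2 fell, with a median of 0.12. The kainate receptor subunit Grik2 (33.3 and 24.5 CPM in NT, 40.0, 42.7 and 43.2 in S586E) and the metabotropic receptors Grm2 and Grm7 rose. Grm7 had 88.7 and 74.1 CPM in NT and 131, 122 and 130 CPM in S586E (log2 0.65, SE 0.125, adjusted p = 0.0145). The NMDA receptor subunits Grin1 and Grin2c fell, Grin1 from 694 and 659 CPM in NT to 525, 566 and 585 CPM in S586E, a log2 change of -0.28. Only Grin2c kept its call with length offsets, and none of the 5 did without NT replicate 2 or S586E replicate 1.

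Of 47 potassium and HCN channel genes 3 rose and 1 fell, with a median of 0.10. Kcnk9, a leak channel, had 87.7 and 63.2 CPM in NT and 141, 125 and 122 CPM in S586E, and the modulatory subunits Kcnf1 and Kcns2 rose by 0.45 and 0.66 on the log2 scale. Hcn2, a pacemaker channel, fell from 114 and 112 CPM to 91.2, 89.4 and 90.4 CPM, a small difference with very little spread in either group. Cacna2d3, an auxiliary calcium channel subunit, was the single call of 25 sodium and calcium channel genes (log2 0.49). Rab3b, a vesicle GTPase, was the single call of 41 release genes. It had 32.9 and 20.6 CPM in NT and 54.6, 46.4 and 50.6 CPM in S586E. Single calls in lists of 25 and 41 are near the 2.78% called over all genes tested. None of these 6 genes was called without NT replicate 2 or without S586E replicate 1.

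Postsynaptic scaffolds and adhesion proteins gave 3 rises and 1 fall among 28 genes. Lrrtm1, Lrrtm3 and Lrrtm4, leucine-rich adhesion proteins of excitatory synapses, rose by 0.51, 0.52 and 0.59 on the log2 scale. Lrrtm4 had 20.2 and 19.3 CPM in NT and 29.4, 29.8 and 29.7 CPM in S586E. Shank3, a scaffold of the postsynaptic density (chr15:89499623-89560261), fell from 317 and 338 CPM to 238, 232 and 247 CPM (log2 -0.46, SE 0.0764, adjusted p = 0.00621). The spread of Shank3 within each group was small beside the gap between them. The list gave 0 calls without NT replicate 2, 1 without S586E replicate 1, 2 without S586E replicate 2 and 1 with length offsets. Shank3 was called with length offsets (adjusted p = 0.0281) and lost its call without NT replicate 2 (log2 -0.41, adjusted p = 0.242). Shank3 also fell in WT addback against NT at rest (log2 -0.52, adjusted p = 0.0152).

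Axon guidance genes gave the most calls of the neuronal lists, 6 higher and 3 lower of 46 with a median of 0.22. The netrin-related Ntng2, the netrin receptor Unc5c and the ephrin receptor Ephb2 had the largest rises of the list. Ntng2 had 29.9 and 26.98 CPM in NT and 52.4, 56.3 and 51.4 CPM in S586E (log2 0.91, SE 0.178, adjusted p = 0.0165). The semaphorin Sema7a, the Slit ligand Slit3 and the plexin Plxnd1 fell, Sema7a from 138 and 172 CPM to 106, 101 and 99.9 CPM. Unc5c rose by 0.71 and Ephb2 by 0.43 on the log2 scale. With length offsets 2 of the 9 were called, with DESeq2 16 genes of the list were, and without NT replicate 2 or S586E replicate 1 none. Of 56 clustered protocadherins, adhesion proteins that give neurons individual identity, Pcdhb7 and Pcdhb20 rose and Pcdhgc3 fell (188 and 198 CPM in NT, 126, 127 and 130 CPM in S586E). That count is not far from the 2.78% called over all genes tested. Reads of these near-identical genes can be divided between them, so their single values are uncertain. The protocadherins gave 0 calls without NT replicate 2 or S586E replicate 1, and 1 without NT replicate 1, without S586E replicate 2 or with length offsets.

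The largest rises other than Smarcc2 were in genes of several kinds. Nnat, an imprinted gene for a small membrane protein of developing neurons, stood at 310 and 259 CPM in NT and 838, 695 and 520 CPM in S586E (log2 1.27, SE 0.291, adjusted p = 0.0298). Rgs5, a regulator of G-protein signalling that is also a pericyte marker, had 13.6 and 7.66 CPM in NT and 27.1, 34.5 and 27.2 CPM in S586E. The other 10 markers of fibroblasts and vessels tested gave no call, and Pdgfrb, which defines pericytes, stood at 4.16 and 4.82 CPM in NT and 2.97 to 4.13 CPM in S586E. Erich3 had 2.80 and 2.06 CPM in NT and 8.46, 8.24 and 8.78 CPM in S586E (log2 1.80, SE 0.286, adjusted p = 0.00438), with little spread among the S586E libraries. Kctd4 stood at 2.25 and 2.34 against 8.68, 4.51 and 5.49 CPM, and Hap1, the huntingtin-associated transport protein, at 64.3 and 48.6 against 114, 112 and 111 CPM. Nxph3, a neurexophilin that binds neurexins, and Thbs3, a thrombospondin, rose by 1.10 and 1.08 on the log2 scale. Nup210l, Gstm2, Sec14l3 and Lrguk complete the 12 and did not exceed 5.51 CPM in any of the 5 libraries. Apart from Smarcc2, none of the 12 was called without NT replicate 2.

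Few other subunits of the remodelling complex were called. Of 29 BAF-type genes 2 were called, Smarcc2 itself and Smarce1, against 2.78% of all genes tested, and the median was 0.03. At an unadjusted p under 0.05 there were 8 of the 29, and DESeq2 called 4. Smarce1, which encodes BAF57, had 28.5 and 31.9 CPM in NT and 41.7, 37.2 and 37.7 CPM in S586E, a log2 fold change of 0.36 (adjusted p = 0.0457) that was lost in 9 of 12 alternatives. Smarca4, the ATPase BRG1, had 279 and 271 CPM in NT and 317, 278 and 289 CPM in S586E and did not pass. Genes induced by neuronal activity gave 2 rises, Nr4a3 of 19 early-response genes (14.99 and 13.7 against 21.3, 22.6 and 19.2 CPM) and Rgs2 of 10 late-response genes (10.5 and 10.8 against 24.2, 18.1 and 19.2 CPM). The early-response list as a whole had a median of -0.28, with Fos at 7.52 and 7.25 CPM in NT and 2.75, 3.90 and 3.60 CPM in S586E, which did not pass (adjusted p = 0.392). The edgeR test made 0 calls among 29 Polycomb genes, 17 interferon-response genes, 23 cholesterol synthesis genes, 13 mitochondrially encoded genes, 5 microglial genes and 5 sex-linked genes. In that order 8, 5, 3, 0, 0 and 0 of them had an unadjusted p under 0.05. DESeq2 called 3 Polycomb genes and none in the other 5 lists. The interferon-response list had a median of -0.42, with 14 of 17 values negative. The plot of list members shows all 31 lists.

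**Figure D4:**
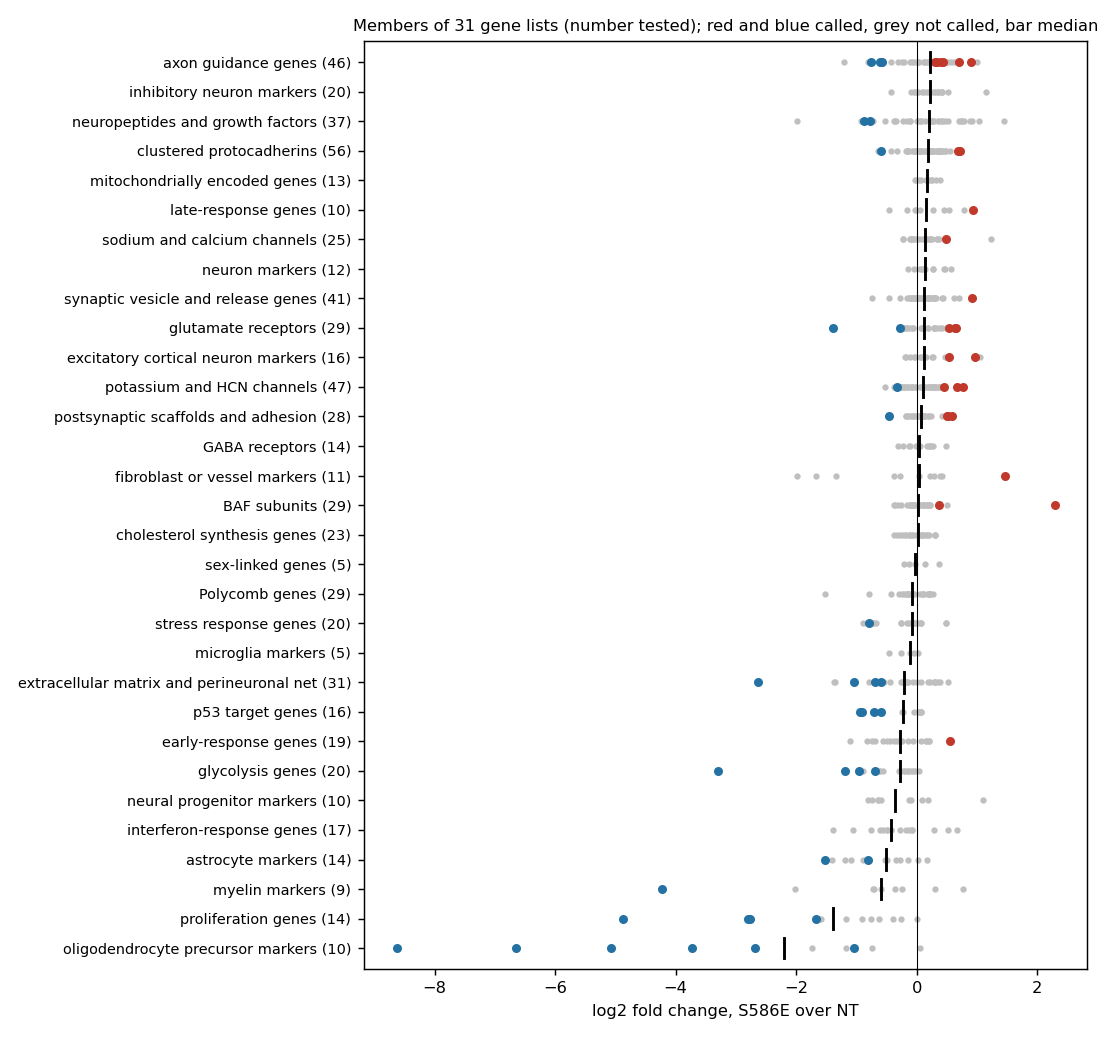
Log2 fold change of S586E over NT for the tested members of 31 gene lists, ordered by median. Red and blue points were called higher and lower, grey points were not called, and black bars are medians. Precursor markers (median -2.21) and proliferation genes (median -1.38) lie at the bottom, and most neuronal lists have medians between 0.04 and 0.22.

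The vector and WT addback cultures were set beside these values. They share the NT libraries with the comparison above, so agreement between the fold changes against NT is partly built in, and only the direct tests between the knockout-derived groups bear on a difference between them. Against NT, 1236 genes were called in vector (5.9%), 446 higher (2.13%) and 790 lower (3.77%). In WT addback 22 were called (0.105%), 16 higher (0.0764%) and 6 lower (0.0287%). These counts rested on single libraries too, with 100 for vector and 3 for WT addback without NT replicate 2, 802 and 6 without NT replicate 1, 724 without vector replicate 1 and 2 without WT replicate 1. The direct test of S586E against WT addback called 0 genes with edgeR (0%), while 2696 genes had an unadjusted p under 0.05 and DESeq2 called 331. The direct test of S586E against vector called 4 genes (0.0191%): Smarcc2, Srebf2 and Dact2 were higher in S586E (0.0143%) and Pgk1 was lower (0.00478%). Same-numbered libraries of these 2 groups varied together, and with the replicate number as a block 14 genes were called. Without vector replicate 3 there were 16, and without vector replicate 1 or vector replicate 2 there were 2 each.

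Gene by gene, the WT addback libraries lay on either side of the gap between NT and S586E. For Pdgfra they had 2.13 and 1.76 CPM, for Top2a 0.996 and 1.85 CPM and for Mki67 1.76 and 1.33 CPM, all nearer to S586E than to NT. For Hk2 they had 8.11 and 24.0 CPM, for Slc2a1 58.3 and 82.4 CPM and for Cdkn1a 105 and 119 CPM, nearer to NT. Vector libraries had 32.4, 40.6 and 28.2 CPM of Slc2a1 and 71.6, 71.2 and 103 CPM of Cdkn1a. The median log2 fold change of the precursor markers was -2.21 for S586E, -2.53 for vector and -2.03 for WT addback, and that of the glycolysis genes was -0.28, -0.37 and -0.05. None of these genes passed the direct test of S586E against WT addback (adjusted p = 0.494 for Pdgfra, 0.123 for Hk2, 0.135 for Slc2a1 and 0.238 for Cdkn1a).

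Depolarized cultures (50 mM KCl for 30 min) gave addback and control libraries that share none with those above. WT addback (3 libraries) against NT (2 libraries) under KCl called 42 genes (0.201%), 16 higher (0.0764%) and 26 lower (0.124%), and 19 of them were among the 583, which is 45.2% of the first list and 3.26% of the second. For knockout with the S586A substitution (2 libraries) the same NT libraries gave 90 genes (0.43%), 40 higher (0.191%) and 50 lower (0.239%), of which 31 were among the 583 (34.4% and 5.32%). Every shared gene had the same direction in both in this fit. Without the low-count filter, 180 of 258 shared genes did for WT addback and 201 of 250 for S586A. With DESeq2, 32 of 38 and 60 of 63 did. Of all 583 genes, 365 (62.6%) had the same sign in WT addback under KCl and 410 (70.3%) in S586A. Genes that fell at rest had median log2 fold changes under KCl of -0.07 in WT addback and -0.15 in S586A. Genes that rose had 0.07 and 0.12 in that order, and the medians over all genes tested were 0.02 and -0.01. Processed pseudogenes made up 9 of the 19 and 23 of the 31 shared genes. The other shared genes included Smarcc2 and genes that fell, some of which were picked for naming after their values were seen. These were Shank3 and Bcan in WT addback, Zbtb20 and Wnk1 in S586A, and Nf2, Ttyh3, Nrip3 and Tns1 in both. Tns1, a focal adhesion protein, had log2 fold changes of -1.15 at rest, -0.90 in WT addback under KCl and -1.13 in S586A under KCl. The precursor markers had medians of -1.08 and -1.48 with no call. Leaving out any of the 5 KCl libraries left 1 to 9 calls for WT addback, and for S586A there were 44 and 4 without NT replicates 1 and 2 under KCl and 7 without S586A replicate 2. State and construct both differ between these comparisons and the resting one, so they are no repeat of it. Without NT replicate 2 at rest the shared genes numbered 2 and 3. Without S586E replicate 2 they numbered 12 and 20, and those shared with S586A were 20 without NT replicate 1 and 18 without S586E replicate 1.

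Processed pseudogenes, which are retrocopies of spliced transcripts, stood out among the rises when the calls were listed by gene class. This class was looked at after the values had been seen. Of 618 tested, 35 rose (5.66%, against 1.04% of all genes tested) and 0 fell. They made up 33 of the 56 genes that rose by at least 1 on the log2 scale. The median log2 fold change was 2.52 among the 35 and 0.31 over all 618, of which 423 were positive. Most were low, with a median over the 35 of 1.19 CPM, and the 1.04% of all genes tested was not matched for level. Some were near 0 in NT, such as Gm14172 with 0.085 and 0.0918 CPM there and 1.59, 1.26 and 0.627 CPM in S586E. The low-count filter used all DIV18 libraries, most of which carried the knockout. Whether that filter favours rises over falls among such low genes was not tested, which limits the counts of 35 and 423. Gm16409 had 0.0425 and 1.70 CPM in NT and 9.89, 11.2 and 7.47 CPM in S586E (log2 3.48, SE 0.486, adjusted p = 0.00234), and Gm12912 had 0.807 and 1.01 against 4.83, 5.29 and 4.81 CPM.

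Summed over the 35 pseudogenes, NT libraries held 80.0 and 88.7 CPM and S586E libraries 199, 204 and 175 CPM. The vector libraries held 168 to 240 CPM and the WT addback libraries 206 and 160. Since the 35 were chosen as higher in S586E than in these NT libraries, the resting sums are a description only. Under KCl, whose libraries took part in the low-count filter and the estimate of spread but not in the contrast that chose the genes, NT held 91.9 and 98.2 CPM and the 8 libraries that carried the knockout 166 to 256 CPM. Over all 618 pseudogenes the sum was 4739 and 4682 CPM in NT and 4599 to 4941 CPM in S586E, so the class as a whole overlapped. Of the 35, 9 were also called in WT addback and 23 in S586A against NT under KCl. Pseudogene reads can be shared with the parent gene, which makes single values uncertain, and without NT replicate 2 only 2 were called. Without NT replicate 1, S586E replicate 1 or S586E replicate 2 there were 19, 15 and 16, and with length offsets 20.

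**Figure D5:**
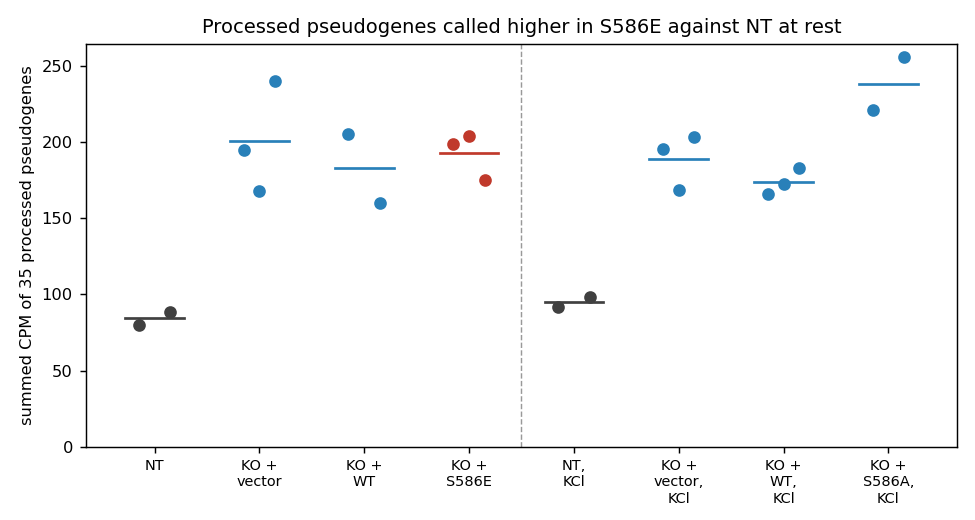
Summed CPM of the 35 processed pseudogenes called higher in S586E against NT at rest, in all 20 DIV18 libraries by group. Points are libraries and bars group means, resting groups are left of the dashed line and depolarized groups right of it. NT libraries lie between 80.0 and 98.2 CPM and all other libraries between 160 and 256 CPM.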

How the data were processed

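RNA-seq of ribosome-depleted RNA from mouse cortical neuron cultures was analysed from 1 table of transcripts per library. Estimated counts, effective lengths and TPM values were deposited by the authors, and the submitters' processing notes name FastQC, cutadapt and kallisto without versions. The TPM values deposited by the authors served only as weights when effective lengths were averaged per gene for the length-offset alternative. Build and annotation are not given in the sources used here. Of 142552 transcripts, 141429 (99.2%) were matched by ID to GENCODE M21 (GRCm38), and the unmatched held at most 0.441% of counts in any library. The estimated counts of a gene's transcripts were added up and rounded to whole numbers.

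The 20 DIV18 libraries (14510199 to 24024959 counts) were fitted together in 8 groups with edgeR 4.0.16 (R 4.3.3): TMM, filterByExpr, quasi-likelihood F test, two-sided, Benjamini-Hochberg over 20940 genes, called at an adjusted p under 0.05. The common biological coefficient of variation was 14.6% with 12 residual degrees of freedom. The 4 DIV7 libraries were left out. The fit was tested on simulated data. Alternatives were median-of-ratios scaling, no low-count filter, effective-length offsets, a replicate block, narrower fits, DESeq2 1.42.0 and leaving out each library. Counts for processed pseudogenes were added after seeing the data.

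Named were Smarcc2, Smarcc1, the 12 largest rises and falls among called genes with a mean of at least 1 CPM, non-overlapping libraries and an established symbol, up to 6 called genes of each of 31 lists, and the most abundant markers. A called list member is not reported here. Comparison and lists were chosen with earlier results of these data known. Counting intervals (95%, exact) and the floor of 3 counts cover counting error only. The labels number replicates without saying what a number shares. Deviations of same-numbered S586E and vector libraries correlated at 0.352, 0.143 and 0.344, so the numbers were read as pairing these libraries. The test of these groups has no block, and the count with the block is given beside it.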

Additional observations from a re-analysis of the deposited data

Results flagged for a closer look

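Against vector at rest, 4 genes differed in the S586E cultures by the direct edgeR test of the 2 knockout-derived groups. Smarcc2, the added gene, was higher by 4.52 on the log2 scale (adjusted p = 4.03e-13). Srebf2, a transcription factor of cholesterol synthesis, was higher by 0.52 (adjusted p = 0.0165). It had 155, 159 and 179 CPM in vector, 258, 218 and 231 CPM in S586E and 225 and 231 CPM in NT. The WT addback libraries held 181 CPM each, nearer to vector than to NT. S586E against WT addback differed by a log2 of 0.38 in Srebf2, which did not pass (edgeR adjusted p = 0.118). Dact2, a Wnt pathway regulator, was higher by 0.58 (adjusted p = 0.0202), and all 3 S586E libraries lay above all 3 vector libraries. Pgk1, a glycolysis enzyme, had a log2 fold change of -1.51 (adjusted p = 2.11e-08), with 1292, 1269 and 1278 CPM in vector against 465, 479 and 403 CPM in S586E. NT held 512 and 570 CPM of Pgk1 and WT addback 571 and 588 CPM, so the vector libraries stood apart from the other 3 resting groups.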

How the results depend on the processing

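All 583 genes kept their sign with each library left out, with length offsets and with DESeq2. In the narrower fits 578 and 577 did. Groups that do not overlap all but fix the sign when 1 library is left out, so that is no support for the calls. The number called moved. It was 1582 without a low-count filter, 925 with the replicate block, 168 with length offsets, 367 in the resting groups alone, 1093 with DESeq2 and 3 to 539 with a library left out. Deviations of same-numbered NT and S586E libraries correlated at 0.056 and 0.081, so their numbers were not read as pairing them. Over all groups the common biological coefficient of variation was 11.6% with the block and 14.6% without it. Whether NT and S586E libraries share an effect of their number was not tested. Vector against NT gave 2016 without a filter, 681 with length offsets, 225 in a fit of those groups and 100 to 1031 with a library left out. WT against NT gave 378 without a filter, 65 with the block, 4 in the resting groups, 130 with DESeq2 and 2 to 17 with a library left out. S586E against vector gave 315 without a filter, 14 with the pairing as a block, 2 with length offsets, 54 with DESeq2 and 2 to 16 with a library left out. S586E against WT gave 782 without a filter, 43 with the block, 1 with length offsets, 43 in a fit of those groups, 331 with DESeq2 and 0 to 1 with a library left out.

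Under KCl, WT against NT gave 704 without a filter, 85 with the block, 13 with length offsets, 5 in a fit of those groups, 336 with DESeq2 and 1 to 9 with a library left out. S586A against NT gave 653, 310, 32, 12 and 377 in that order and 4 to 75 with a library left out. Genes shared with the resting comparison were 258, 31, 6, 2 and 38 for WT and 2 to 15 with a library left out, and 250, 66, 16, 8 and 63 for S586A and 3 to 24 with a library left out. Smarcc1 changed sign, from a log2 fold change of -0.08 to 0.087 with length offsets, and lay between -0.18 (without NT replicate 1) and 0.029 (without NT replicate 2) with a library left out. The causes were not tested, beyond the smaller number of libraries when 1 is left out. Of 76 single results, 74 lost their call without NT replicate 2 and 44 with length offsets, and 73 of 73 were the same with DESeq2. With 2 control libraries, a small difference cannot be told from the spread between them.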
